A study of Mus musculus with 2 samples.

Results

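Chemokines are small secreted proteins that steer the movement of leukocytes, and they were followed here with their receptors in the kidney of 1 Mxi1 -/- mouse and 1 Mxi1 +/+ mouse. The genes were chosen by name: every gene in the platform annotation whose symbol starts with Ccl, Cxcl, Cx3c, Xcl, Xcr, Cxcr or Ccrl, or with Ccr and a number. This gave 50 genes of 10208 named on the array, of which 21 are CC ligands, 11 CXC ligands, 2 the CX3C and C ligands, and 16 receptors. Each rests on 1 probe. Chemokine genes without a named probe were not analysed here.

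The experiment animal was Mxi1 -/- and the control Mxi1 +/+, both labelled 1Y, with 1 single-colour CodeLink array of kidney RNA each. The Mxi1 protein pairs with MAX and competes with MYC for the same E-box sites. The labels give no treatment, and they leave the strain, the sex and the deleted part of the gene unnamed. With 1 mouse a genotype there is no spread between animals, so no difference below could be tested, and genotype cannot be told apart from any other difference between these animals.

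Ligands of the CC and CXC families differ in whether their first paired cysteines lie next to each other or are held apart by a residue. They act through G protein-coupled receptors on leukocytes, and a ligand gradient held on matrix and endothelium guides the cells. In kidney, tubule, endothelial and resident immune cells can make them, and the inflammatory members are known for induction by interferon, TNF and Toll-like receptor signals. The homeostatic members arrange lymphocytes and dendritic cells in lymphoid tissue.

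The deposited values are linear intensities with an array median of 0.935 in Mxi1 -/- against 0.929 in Mxi1 +/+. A noise floor was taken from the values below 0, at 0.156 in Mxi1 -/- against 0.102 in Mxi1 +/+, and no fold is given from a reading under it except as a bound. The difference is log2 Mxi1 -/- minus log2 Mxi1 +/+ after each array was centred on its median. Genes at or above the median level are those whose mean of both arrays reaches the median of all probes. The only error estimate is technical: between probes of the same gene the standard deviation of the log2 difference was 0.17 at or above the median level (41 genes with a pair of probes) and 0.49 below it and above both floors (18 genes). Mxi1 itself read 1.69 in Mxi1 -/- against 4.31 in Mxi1 +/+, 2.54-fold lower and so in the direction of the labels. The Mxi1 -/- reading was still above both the floor and the median of that array, so the probe signal was not lost. The kidney tubule and podocyte markers were all above the floors, 10 of 10, and summed to 486 in Mxi1 -/- against 456 in Mxi1 +/+.

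Both arrays read above the floor for 42 of the 50 genes, and 18 of those lay at or above the median level. In these 18, 15 were higher and 3 lower in Mxi1 -/-, where 40.1% of all 5737 named genes at that level were higher. Ccl19, Ccl12 and Cxcl14 were at least 2-fold higher and none was at least 2-fold lower, beside 0.558% and 1.39% of all genes at that level. Because the level is a mean of both arrays, a high reading in 1 array can bring a gene into this set. In Mxi1 +/+ Ccl12 read 0.788, below that array's median of 0.929, and Cxcl14 read 0.953, close to it. In the same way Ccl25, at 0.864 in Mxi1 -/- against 1.11 in Mxi1 +/+, fell outside the set through its Mxi1 -/- reading. The counts for this set, 3 against none among them, and its median difference are therefore not independent of the choice of set. The median log2 difference of the 18 was 0.32, against -0.06 for all genes at that level. Members beyond 1 standard deviation between probes numbered 12 on the higher side and 1 on the lower side, beside 18.4% and 34.8% of all genes at that level, and 5 lay within it. At a 1.5-fold line Ccl6 and Cxcl10 joined, giving 5 higher and none lower, beside 2.41% and 5.26% of all genes at that level.

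The 24 dimmer genes did not lean the same way. Of these, 11 were higher and 13 lower in Mxi1 -/-, beside 53.7% of dim genes that were higher. Ccr1 and Ccl3 were at least 2-fold higher, and Ccl7, Cxcl1 and Cxcl15 at least 2-fold lower, beside 6.67% and 3.54% of all 2998 dim genes. The median log2 difference of the 24 was -0.02, against 0.05 for all dim genes, and 15 of the 24 lay within 1 standard deviation between probes, a share near the 63.7% of all dim genes that did so. Over all 42 genes above both floors, 5 passed the 2-fold line on the higher side and 3 on the lower side, beside 2.66% and 2.13% of all named genes above both floors. With no filter on level these numbers were 7 and 4 of 48, Ccl20, Ccr10 and Ccr1l1 under a floor among them, beside 5.77% and 5.59% of all 9985 genes, and with genes at or above the 75th percentile of level Ccl19 was the 1 of 8 that was 2-fold higher, beside 0.326%.

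**Figure D1:**
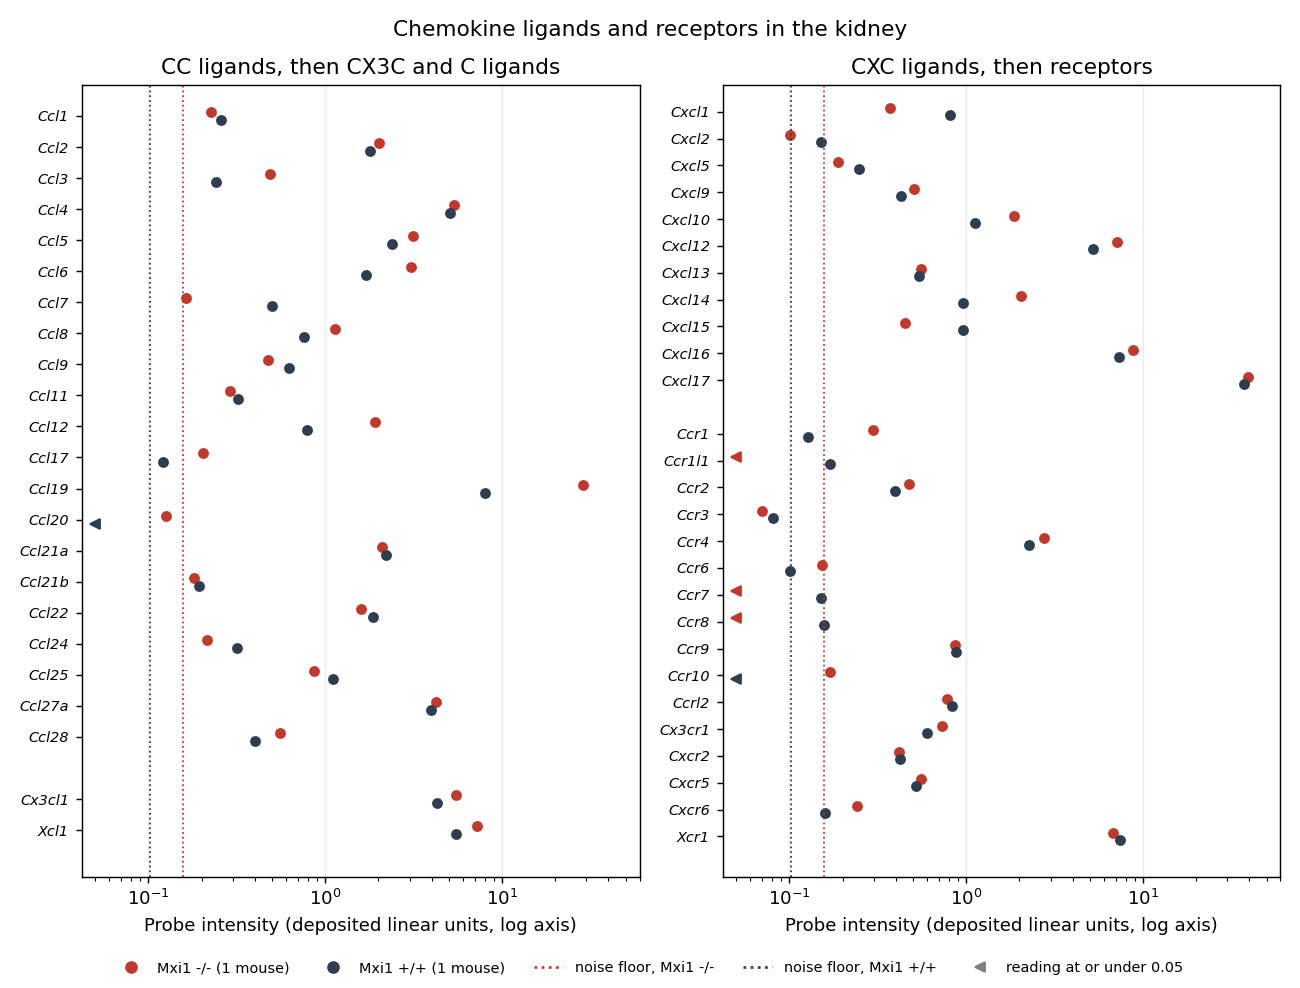
Probe intensity of the 50 genes on a log axis, with Mxi1 -/- in red and Mxi1 +/+ in dark blue (1 mouse each, no error bars) and dotted lines at each array's noise floor. Ccl19 shows the widest gap among bright genes, 28.6 in Mxi1 -/- against 7.98 in Mxi1 +/+, and 6 of the 16 receptors have a reading under a floor.

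Ccl19 carried the largest difference among the bright members. Together with Ccl21 it is the ligand of Ccr7, the receptor that brings naive T cells and mature dendritic cells into lymph nodes. It read 28.6 in Mxi1 -/- against 7.98 in Mxi1 +/+, 3.59-fold higher (log2 1.84), rank 14 from the top among the 5737 named genes at or above the median level. The other ligand did not share this. Ccl21a read 2.11 in Mxi1 -/- against 2.21 in Mxi1 +/+, and Ccl21b read 0.181 in Mxi1 -/- against 0.194 in Mxi1 +/+. The Ccl21 genes are near-identical copies and Ccl19 has pseudogene relatives in RefSeq, so what each probe binds is uncertain. Ccr7 itself was near or under the floor, at -0.0432 in Mxi1 -/- against 0.150 in Mxi1 +/+, and has no fold.

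The counts of surrounding gene lists here and below are set against all named genes above both floors, of which 44.8% were higher and 55.2% lower in Mxi1 -/-. Genes of lymphoid stroma and high endothelium lay on both sides. Of the 8 named on the array, all above the floors, 3 were higher and 5 lower in Mxi1 -/-, and their summed intensity was 14.2 in Mxi1 -/- against 16.6 in Mxi1 +/+. The B and plasma cell markers summed to 21.9 in Mxi1 -/- against 19.5 in Mxi1 +/+, with 6 of 7 higher and Ms4a1 under the floor in Mxi1 -/-. The T and NK cell markers summed to 9.87 in Mxi1 -/- against 9.68 in Mxi1 +/+, with 4 of 10 higher. Zap70 and Prf1 were under the floor in both, and Cd8b1, Klrb1c and Klrd1 in Mxi1 -/- alone. The part of these cells in the Ccl19 reading was not tested, and in bulk tissue fewer cells of a type and less RNA per cell cannot be told apart.

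The promoter window of Ccl19 is shown with that of Cxcl10, a classic interferon-induced chemokine, because the same run of bases was found in both. Windows are from RefSeq (GRCm38.p6), 250 bases before to 50 after the gene start, written 5′ to 3′ on the gene's strand. Capitals mark matches to the core of the interferon-stimulated response element (ISRE), searched as GAAA, any 2 bases and GAAA again, and to a form of the NF-kB site, searched as GGGA, any 2 bases and TTCC, each on both strands. The Ccl19 window is chr4:42756316-42756615, minus strand, and the Cxcl10 window is chr5:92348840-92349139, minus strand.
Ccl19: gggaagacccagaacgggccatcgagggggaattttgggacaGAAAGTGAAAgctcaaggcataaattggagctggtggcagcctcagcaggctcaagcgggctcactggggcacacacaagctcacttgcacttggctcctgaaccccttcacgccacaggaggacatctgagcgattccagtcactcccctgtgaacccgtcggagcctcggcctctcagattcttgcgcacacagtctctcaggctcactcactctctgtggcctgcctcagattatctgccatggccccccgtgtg
Cxcl10: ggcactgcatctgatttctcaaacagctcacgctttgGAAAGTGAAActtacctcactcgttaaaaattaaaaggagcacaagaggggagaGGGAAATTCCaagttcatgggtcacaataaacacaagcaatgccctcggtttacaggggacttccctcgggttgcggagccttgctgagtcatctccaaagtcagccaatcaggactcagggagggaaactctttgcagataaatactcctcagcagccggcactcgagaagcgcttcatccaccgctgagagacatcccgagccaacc

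Both windows held GAAAGTGAAA, 208 bases before the start in Ccl19 and 213 bases before it in Cxcl10, and Cxcl10 also held GGGAAATTCC. An ISRE-type match was found in 3.44% of all 32851 windows in the table and in 3 of the 44 windows that belong to members. A match describes letters in the window and shows no binding.

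Of the interferon-induced ligands of Cxcr3, Cxcl10 was higher by more than the standard deviation between probes. It read 1.86 in Mxi1 -/- against 1.12 in Mxi1 +/+, 1.66-fold higher (log2 0.73). Its neighbour Cxcl9, which shares that receptor, read 0.507 in Mxi1 -/- against 0.426 in Mxi1 +/+, a log2 difference of 0.25 that lies within 1 standard deviation between probes at that level.

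Monocyte chemoattractants split. Ccl12, a mouse ligand of Ccr2, read 1.91 in Mxi1 -/- against 0.788 in Mxi1 +/+, 2.42-fold higher, with the Mxi1 +/+ reading below that array's median. Ccl8 read 1.14 in Mxi1 -/- against 0.762 in Mxi1 +/+, a log2 difference of 0.59. Ccl2, the main Ccr2 ligand, read 2.01 in Mxi1 -/- against 1.78 in Mxi1 +/+, 1.13-fold higher. Ccl7 was the exception at 0.164 in Mxi1 -/- against 0.500 in Mxi1 +/+, 3.05-fold lower, though its Mxi1 -/- reading stands barely above the floor. These genes lie near each other on chromosome 11, so neighbours differed in opposite directions. Ccr2, the receptor on inflammatory monocytes, read 0.475 in Mxi1 -/- against 0.393 in Mxi1 +/+.

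The ligands of Ccr1 lay on both sides. Ccl6, which mouse macrophages make, read 3.04 in Mxi1 -/- against 1.71 in Mxi1 +/+, 1.78-fold higher. Ccl5, made by T cells among others, read 3.13 in Mxi1 -/- against 2.39 in Mxi1 +/+, 1.31-fold higher. Ccl3 read 0.485 in Mxi1 -/- against 0.241 in Mxi1 +/+, and its relative Ccl4 read 5.37 in Mxi1 -/- against 5.10 in Mxi1 +/+. Ccl3 was thus 2.02-fold higher from dim readings while the adjacent Ccl4 lay 1.05-fold apart. Ccl9 was the lower one, at 0.477 in Mxi1 -/- against 0.625 in Mxi1 +/+. Ccr1 read 0.297 in Mxi1 -/- against 0.127 in Mxi1 +/+, 2.34-fold higher, a size that 3.57% of dim genes reached. Its Mxi1 +/+ reading stands close to that array's floor of 0.102.

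Macrophage and dendritic cell markers were more often higher than lower. Of 16 named on the array 14 were above both floors, and 11 of the 14 were higher in Mxi1 -/-, beside the 44.8% of all named genes. They summed to 64.6 in Mxi1 -/- against 49.9 in Mxi1 +/+, with Itgam and Cd83 under the floor in Mxi1 -/-. Most of that gap came from 3 genes, the complement subunits C1qa (1.57-fold higher) and C1qb (1.49-fold higher) and the protease Ctss (1.67-fold higher). The 3 lower ones of the 14, named after their values were seen, were Cd14 at log2 -0.24, Itgax at -0.17 and Mrc1 at -0.07. Outside the 14, Itgam (0.121 in Mxi1 -/- against 0.255 in Mxi1 +/+) and Cd83 (0.0489 in Mxi1 -/- against 0.172 in Mxi1 +/+) also read lower. The part of these cells in the chemokine readings was not tested.

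**Figure D2:**
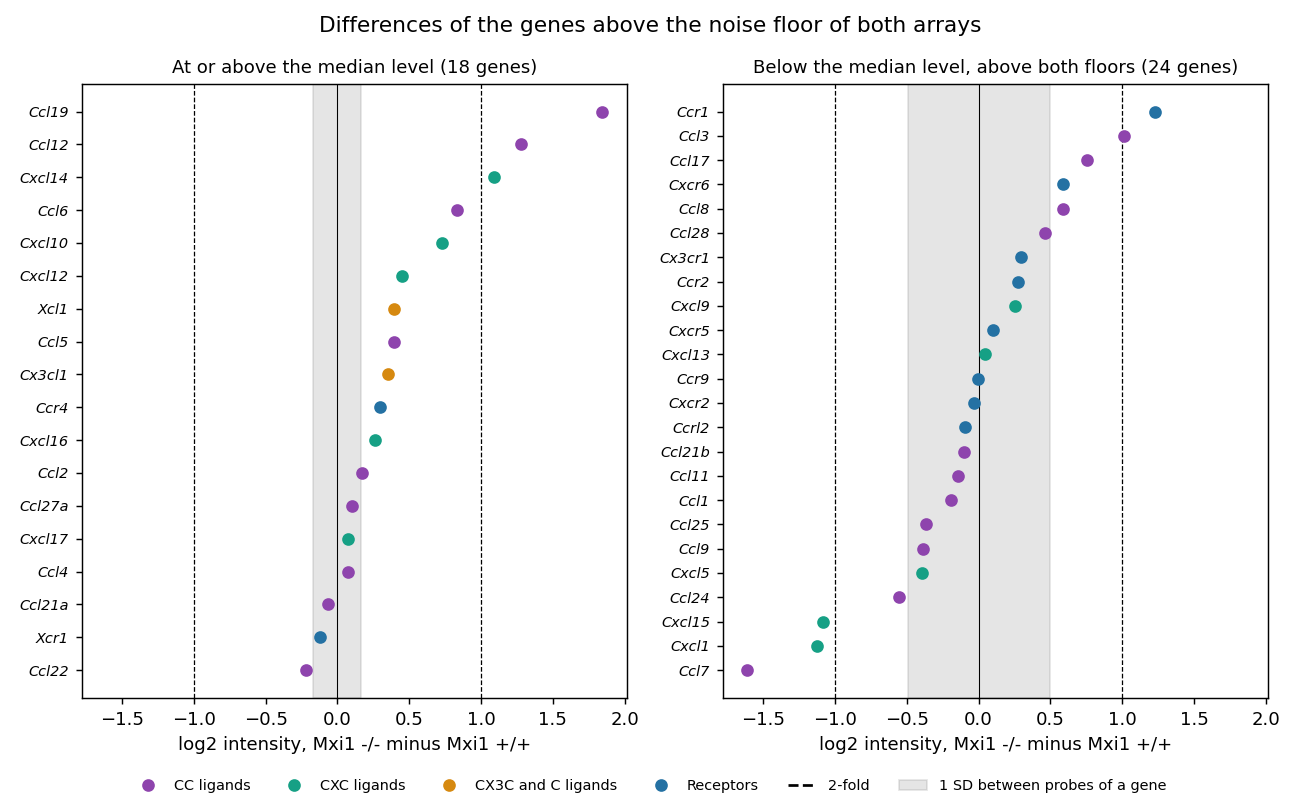
Difference of each gene above both noise floors (log2 intensity, Mxi1 -/- minus Mxi1 +/+), with 18 genes at or above the median level on the left and 24 dimmer genes on the right. Dashed lines mark 2-fold and the grey band 1 standard deviation between probes of a gene (0.17 left, 0.49 right). The left panel leans to the higher side, from -0.22 for Ccl22 to 1.84 for Ccl19, and the right panel runs from -1.61 for Ccl7 to 1.23 for Ccr1.

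Among the CXC ligands that draw neutrophils through Cxcr2, Cxcl1 was lower by more than the standard deviation between probes at its level. It read 0.371 in Mxi1 -/- against 0.809 in Mxi1 +/+, 2.18-fold lower. Cxcl5 read 0.188 in Mxi1 -/- against 0.248 in Mxi1 +/+, 1.32-fold lower and within that standard deviation, and 46.3% of all dim genes were lower by any size. Cxcl2 read 0.101 in Mxi1 -/-, under the floor, and 0.150 in Mxi1 +/+, which allows no fold. Cxcl15, a mouse relative first known from lung, read 0.453 in Mxi1 -/- against 0.960 in Mxi1 +/+, 2.12-fold lower. All 4 are dim and lie near each other on chromosome 5. Cxcr2 itself read 0.415 in Mxi1 -/- against 0.425 in Mxi1 +/+.

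Neutrophil markers did not separate the kidneys in 1 direction. Of 7 above both floors 4 were higher and 3 lower, and the 9 named on the array summed to 4.63 in Mxi1 -/- against 4.75 in Mxi1 +/+, with Camp under the floor in Mxi1 -/- and Mpo in Mxi1 +/+. Markers of stratified epithelium and urothelium were lower in 8 of 11, 5 of them at least 2-fold, and summed to 22.2 in Mxi1 -/- against 46.1 in Mxi1 +/+. The 5 were Krt5, Krt19, Sprr1a, Sprr2a1 and Ly6d. They lay at or above the median level, where 1.39% of all genes were at least 2-fold lower. The uroplakins did not share this, with Upk1b at 10.0 in Mxi1 -/- against 9.77 in Mxi1 +/+ and Upk2 1.32-fold lower. Krt4 (1.12-fold) and the dim Krt13 (2.52-fold) were higher. Fat cell markers were lower in 8 of 8 above both floors and summed to 215 in Mxi1 -/- against 415 in Mxi1 +/+, with Ucp1 under the floor in Mxi1 -/-. Those 8 lay at or above the median level, and 6 were at least 2-fold lower, beside the same 1.39% of all genes. The part of either tissue in the chemokine readings was not tested.

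The windows of Cxcl1 and Cxcl2 are shown because both held the same NF-kB type match, GGGAATTTCCC, in capitals below. It starts 71 bases before the start in Cxcl1 (chr5:90890995-90891294, plus strand) and 97 bases before it in Cxcl2 (chr5:90903649-90903948, plus strand), and it matches on both strands, shifted by 1 base.
Cxcl1: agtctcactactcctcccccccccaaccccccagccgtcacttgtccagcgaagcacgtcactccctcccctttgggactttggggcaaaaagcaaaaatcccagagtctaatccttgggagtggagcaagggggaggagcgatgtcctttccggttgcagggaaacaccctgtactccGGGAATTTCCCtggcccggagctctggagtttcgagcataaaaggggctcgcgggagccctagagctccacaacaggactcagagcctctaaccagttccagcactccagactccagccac
Cxcl2: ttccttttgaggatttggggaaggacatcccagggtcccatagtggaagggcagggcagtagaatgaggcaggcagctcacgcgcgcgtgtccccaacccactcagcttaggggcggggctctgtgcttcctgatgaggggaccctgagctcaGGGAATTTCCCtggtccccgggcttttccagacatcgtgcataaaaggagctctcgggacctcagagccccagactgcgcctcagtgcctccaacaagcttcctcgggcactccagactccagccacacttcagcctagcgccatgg

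The NF-kB type match was found in 1.47% of all windows and in 5 of 44 member windows, those of Ccl1, Ccr3, Cxcl1, Cxcl2 and Cxcl10. Cxcl10, with a match, was thus on the higher side while Cxcl1, also with one, was on the lower side.

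**Figure D3:**
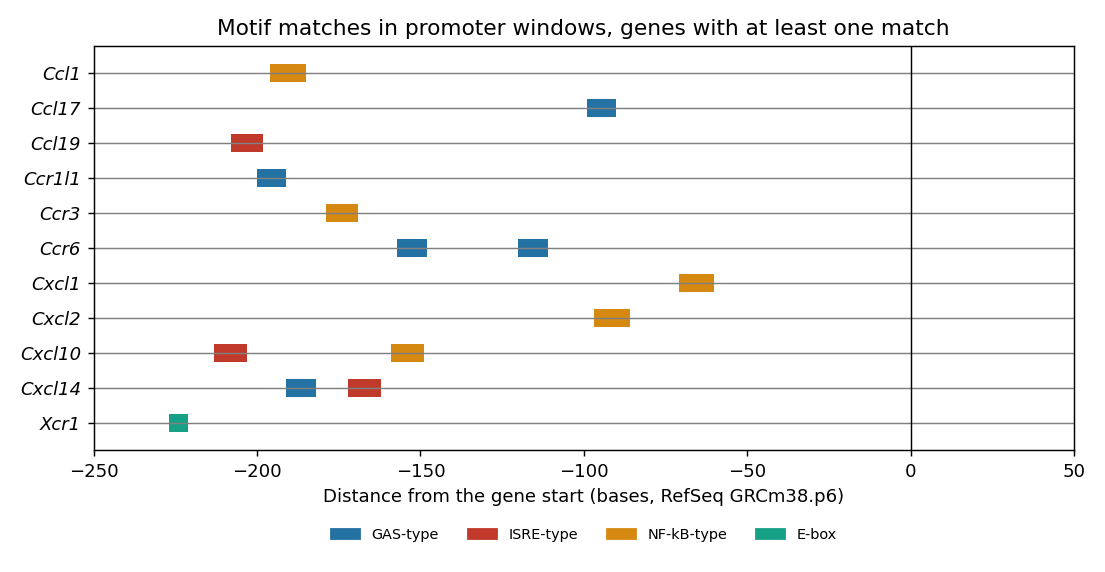
Matches in the promoter windows of the 11 genes with at least 1, by distance from the gene start in bases. ISRE-type matches stand at -208 in Ccl19 and -213 in Cxcl10, and the NF-kB type matches nearest to the start are those of Cxcl1 and Cxcl2. GAS-type is TTCNNNGAA and E-box is CACGTG.

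Cxcl14 and Cxcl12 are made constitutively by epithelial or stromal cells. Cxcl14 read 2.03 in Mxi1 -/- against 0.953 in Mxi1 +/+, 2.13-fold higher (log2 1.09), with the Mxi1 +/+ reading close to that array's median. Cxcl12, the ligand of Cxcr4 that retains progenitors and lymphocytes, read 7.15 in Mxi1 -/- against 5.24 in Mxi1 +/+, 1.36-fold higher. Its scavenging receptor Ackr3, which the naming rule leaves outside the 50, read 3.77 in Mxi1 -/- against 3.22 in Mxi1 +/+. The Cxcl14 window (chr13:56296502-56296801, minus strand) is shown because it held a match to TTCNNNGAA, the letters searched as the GAS type of interferon-response site, followed by an ISRE-type match, both in capitals.
Cxcl14: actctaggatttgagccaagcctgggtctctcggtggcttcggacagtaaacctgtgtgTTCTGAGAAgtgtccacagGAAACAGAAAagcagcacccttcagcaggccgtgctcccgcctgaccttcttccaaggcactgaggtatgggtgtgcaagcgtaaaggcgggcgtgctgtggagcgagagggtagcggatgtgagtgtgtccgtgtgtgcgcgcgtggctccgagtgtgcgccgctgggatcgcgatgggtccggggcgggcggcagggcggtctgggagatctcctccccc

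TTCNNNGAA was found in 8.30% of all windows and in 4 of 44 member windows. CACGTG, the E-box that MAX and its partners bind, was found in 7.15% of all windows and in 1 member window, that of Xcr1. Xcr1 read 6.79 in Mxi1 -/- against 7.39 in Mxi1 +/+, 1.09-fold lower. A promoter entry was matched for 38 of the 50 genes, and the Ccl12 window had none of these matches.

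The membrane-bound ligands Cx3cl1 and Cxcl16, and the C chemokine Xcl1, were a little higher. Cx3cl1 (fractalkine), which holds Cx3cr1-bearing macrophages, read 5.49 in Mxi1 -/- against 4.30 in Mxi1 +/+, 1.28-fold higher. Cx3cr1 read 0.732 in Mxi1 -/- against 0.598 in Mxi1 +/+, 1.23-fold higher. Cxcl16 read 8.76 in Mxi1 -/- against 7.32 in Mxi1 +/+, 1.20-fold higher, and its receptor Cxcr6, of memory T and NK cells, read 0.240 in Mxi1 -/- against 0.160 in Mxi1 +/+. Xcl1, which T and NK cells release to draw Xcr1-bearing dendritic cells, read 7.24 in Mxi1 -/- against 5.52 in Mxi1 +/+, 1.31-fold higher. Xcl1 and Xcr1 thus lay on opposite sides, and the Xcr1 difference is smaller than the standard deviation between probes.

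Several homeostatic and barrier chemokines read nearly alike. Cxcl17, a mucosal chemokine, read 39.3 in Mxi1 -/- against 37.3 in Mxi1 +/+. Ccl27a, a skin ligand of Ccr10 with near-identical copies, read 4.25 in Mxi1 -/- against 3.97 in Mxi1 +/+. Cxcl13, which with Cxcr5 forms B cell follicles, read 0.556 in Mxi1 -/- against 0.539 in Mxi1 +/+, and Cxcr5 read 0.558 in Mxi1 -/- against 0.520 in Mxi1 +/+. These 4 differed by less than the standard deviation between probes at their level. With 1 animal a genotype this does not show that they are equal.

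The Ccr4 axis was mixed. Ccr4, found on T helper type 2 and regulatory T cells, read 2.77 in Mxi1 -/- against 2.26 in Mxi1 +/+, 1.23-fold higher. Its ligand Ccl22 read 1.60 in Mxi1 -/- against 1.86 in Mxi1 +/+, 1.16-fold lower, the furthest on the lower side among the 18 brighter members. Its other ligand Ccl17 read 0.203 in Mxi1 -/- against 0.120 in Mxi1 +/+, both close to the floors. The adjacent genes Ccl22, Cx3cl1 and Ccl17 on chromosome 8 thus held 1 lower and 2 higher readings.

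The remaining dim genes lay, apart from Ccl24, within 1 standard deviation between probes. The eotaxins, eosinophil attractants acting on Ccr3, read 0.216 in Mxi1 -/- against 0.316 in Mxi1 +/+ for Ccl24, and 0.291 in Mxi1 -/- against 0.322 in Mxi1 +/+ for Ccl11. Ccl25, which guides T cells to thymus and gut, read 0.864 in Mxi1 -/- against 1.11 in Mxi1 +/+, 1.29-fold lower. Its receptor Ccr9 read 0.869 in Mxi1 -/- against 0.871 in Mxi1 +/+. Ccl1 read 0.226 in Mxi1 -/- against 0.258 in Mxi1 +/+. Ccl28, a mucosal ligand, was on the other side at 0.552 in Mxi1 -/- against 0.401 in Mxi1 +/+, and Ccrl2, a receptor known to present chemerin, read 0.775 in Mxi1 -/- against 0.830 in Mxi1 +/+.

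A further 7 genes with Cxcl2 made up the 8 under a floor, and they carry no usable fold. Ccr3, Ccr6 and Ccl20 were under the floor in both kidneys. Ccr7, Ccr8 and Ccr1l1 were under it in Mxi1 -/- and read at most 0.171 in Mxi1 +/+, so the bounds are at least 1.01-fold lower for Ccr8, at least 1.09-fold lower for Ccr1l1 and none for Ccr7. Ccr10 read 0.170 in Mxi1 -/- but 0.0011, below the noise floor, in Mxi1 +/+, which gives at least 1.66-fold higher. Of the 16 receptors, 10 were above both floors, and of those 6 were higher and 4 lower, with Ccr4 and Xcr1 at or above the median level.

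**Figure D4:**
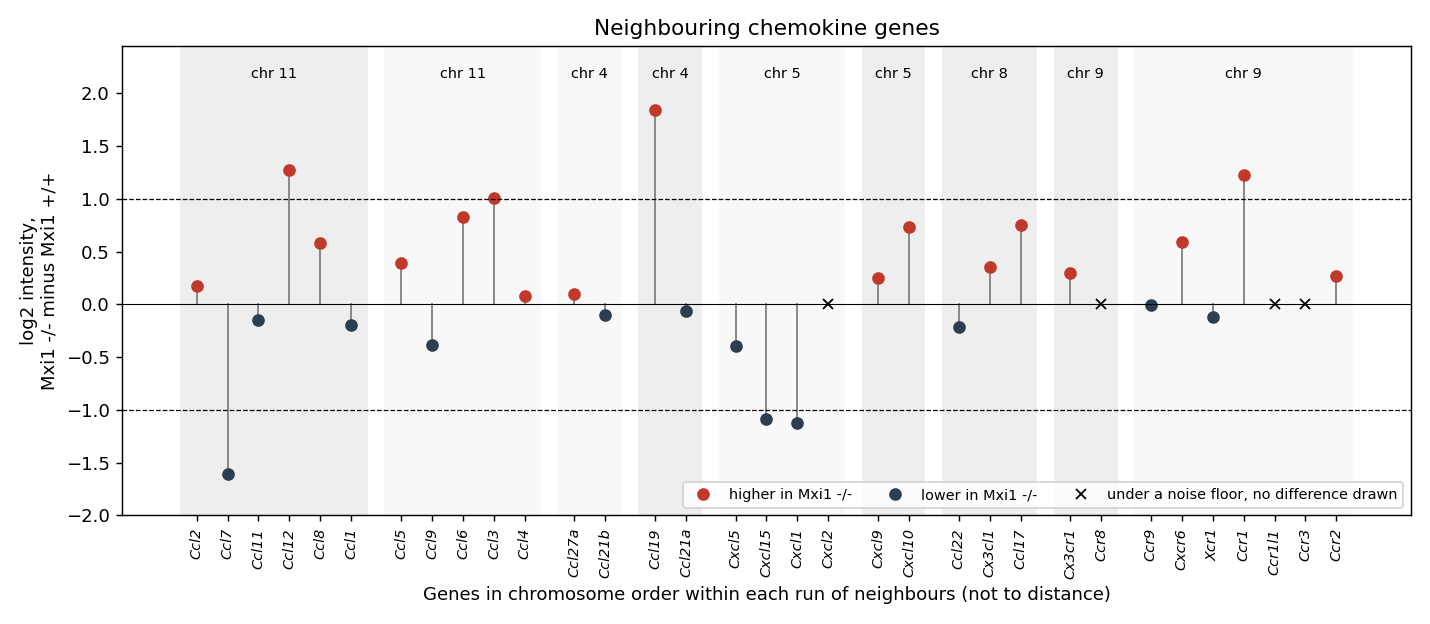
Difference of chemokine genes that neighbour each other (starts within 500 kb in RefSeq), in chromosome order, with crosses for genes under a noise floor. The 4 Cxcl genes on chromosome 5 hold 3 lower readings and 1 under the floor, while the 6 CC genes of the first run on chromosome 11 hold 3 higher and 3 lower.

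Of 9 runs of neighbours, 6 held both higher and lower readings. A sign of any size was counted, and 44.8% of all named genes above both floors were higher by any size. The lower readings of Ccl9, Ccl21a, Ccr9 and Xcr1 lay within 1 standard deviation between probes. No share of mixed runs was worked out for other genes, so the count shows nothing particular to these neighbours. The second run on chromosome 11 held 4 higher genes (Ccl5, Ccl6, Ccl3 and Ccl4) and 1 lower (Ccl9). The run of 7 receptor genes on chromosome 9 held 3 higher, 2 lower and 2 without a fold. Ccl19 and Ccl21a, neighbours on chromosome 4, lay at log2 1.84 and -0.07.

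**Figure D5:**
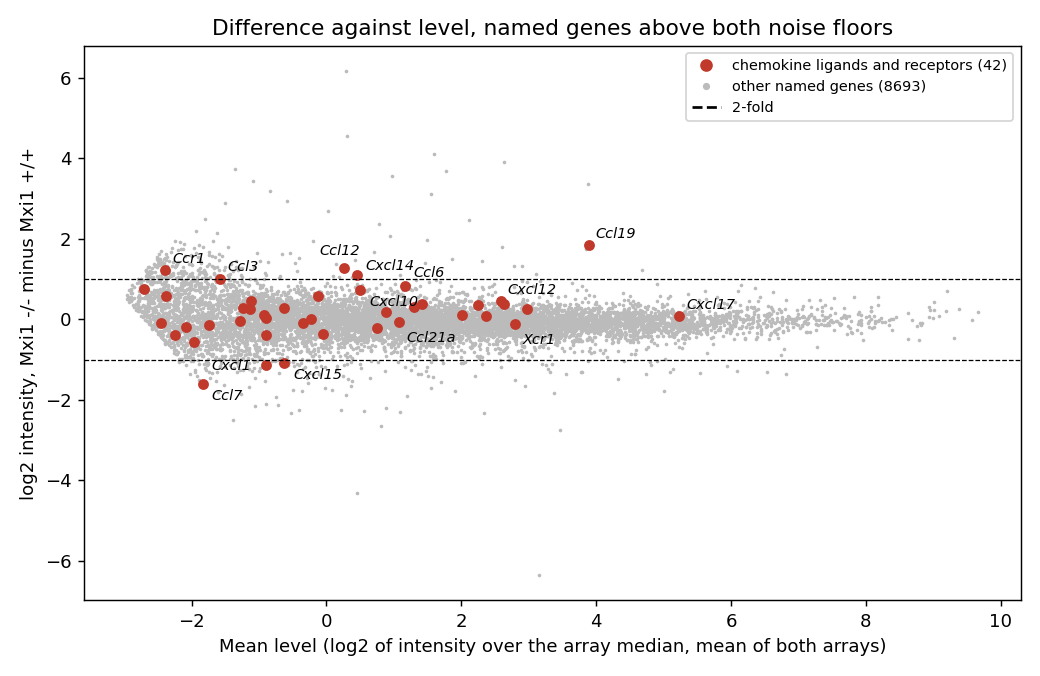
Difference against mean level for the named genes above both noise floors, with the 42 chemokine ligands and receptors in red over the other named genes in grey. Ccl19 lies at 1.84, well over the 2-fold line, and the grey cloud widens to the left, where Ccr1, Ccl3, Ccl7, Cxcl1 and Cxcl15 lie.

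At or above the median level, genes that surround the chemokine system mostly differed little. Among 10 chemokine-like ligands and atypical receptors, Ccrl2 included, 5 were higher and 5 lower and none reached 2-fold. The largest differences at or above the median level were the platelet chemokine Ppbp (1.04 in Mxi1 -/- against 1.22 in Mxi1 +/+), Cmtm3 (2.32 in Mxi1 -/- against 2.73 in Mxi1 +/+) and Ackr3. Of 35 genes of receptor signalling, 30 were above both floors, with 16 higher and 14 lower and a median log2 difference of 0.01. Below the median level, Ncf1 (3.51-fold) and Dock2 (2.69-fold) were past 2-fold, both higher in Mxi1 -/-, beside 6.67% of all dim genes. Gnai2, the inhibitory G protein subunit through which chemokine receptors act, read 12.5 in Mxi1 -/- against 9.73 in Mxi1 +/+. Rgs2, which shortens G protein signals, read 17.3 in Mxi1 -/- against 22.8 in Mxi1 +/+, and the kinase Jak3 read 2.64 in Mxi1 -/- against 3.38 in Mxi1 +/+.

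Among 25 known inducers of chemokine genes, 21 were above both floors, with 10 higher and 11 lower and a median log2 difference of -0.04. Of the 8 at or above the median level, 1 was at least 2-fold higher and none at least 2-fold lower. Of all genes at that level, 0.558% were at least 2-fold higher and 1.39% lower. The 1 inducer was Irf1, the transcription factor that interferon gamma induces, at 12.0 in Mxi1 -/- against 4.79 in Mxi1 +/+, 2.50-fold higher. Among the dimmer inducers above both floors, Il1r1 (2.97-fold) and Tnf (2.49-fold) were higher in Mxi1 -/-. Their Mxi1 +/+ readings, 0.149 for Il1r1 and 0.133 for Tnf, stand close to that array's floor of 0.102. Map3k14 (2.40-fold) and Tlr3 (2.03-fold) were lower, beside 6.67% of all dim genes at least 2-fold higher and 3.54% lower. The adaptor Myd88 read 2.46 in Mxi1 -/- against 3.49 in Mxi1 +/+, and Nfkbia, the NF-kB inhibitor that NF-kB itself induces, read 27.9 in Mxi1 -/- against 37.5 in Mxi1 +/+.

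Of 13 leukocyte adhesion genes, 11 were above both floors, with 4 higher and 7 lower and none past 2-fold at or above the median level. Below the median level and above both floors, Pecam1 was 2.57-fold lower (0.555 in Mxi1 -/- against 1.43 in Mxi1 +/+), beside 3.54% of all dim genes. The extremes at or above the median level were Selplg, the selectin ligand of leukocytes (1.86 in Mxi1 -/- against 1.63 in Mxi1 +/+), the dendritic cell integrin Itgax (1.22 in Mxi1 -/- against 1.37 in Mxi1 +/+) and the junction protein Jam3 (15.5 in Mxi1 -/- against 17.5 in Mxi1 +/+). Markers of blood endothelium, which presents chemokines to passing leukocytes, summed to 71.1 in Mxi1 -/- against 71.9 in Mxi1 +/+, with Cdh5 under the floor in Mxi1 +/+. Of the 8 above both floors 5 were higher and 3 lower, so the near-equal sums hide opposite differences. Emcn read 10.7 in Mxi1 -/- against 18.6 in Mxi1 +/+, 1.73-fold lower. Tek read 2.92 in Mxi1 -/- against 3.73 in Mxi1 +/+, 1.28-fold lower, and Pecam1, given above, was the other lower one. Kdr (12.8 in Mxi1 -/- against 9.86 in Mxi1 +/+) and Plvap (14.7 in Mxi1 -/- against 12.3 in Mxi1 +/+) were higher.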

How the data were processed

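Kidney RNA of 1 Mxi1 -/- and 1 Mxi1 +/+ mouse was read on 1 array each. The authors deposited a table of intensity values, linear and not log, with 1 value for each of 20289 probes on each array. Per the labels' protocols the RNA was DNase-treated, amplified and labelled as biotinylated cRNA for CodeLink arrays. Scanner software, background correction and normalization have no record in the labels, so the scale and any prior centring stay unknown.

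The code -9999 (39 places in Mxi1 -/-, 60 in Mxi1 +/+) was read as missing. The noise floor is 3 times the root mean square of an array's values below 0. Probes above 0 in both arrays (19663) were put on a log2 scale and centred on the array median, and a gene took its probe with the highest mean level (9985 genes, 5737 at or above the median level). Symbols came from the platform annotation through RefSeq gene identifiers (10349 probes named, 9940 not). No p-value was computed, since 1 array a group leaves no spread, and the number of arrays limits the precision. The procedure was tested on simulated data.

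Members, gene lists and the 2-fold line were chosen with earlier results of these data known. The naming rule took every member, and up to 3 genes with the largest difference at or above the median level of each list of related genes. Dimmer genes past 2-fold in the lists of related genes were named after the values were seen. The CACGTG search was also added after the values were seen. Alternatives were other scalings, pseudocounts, level filters and a 1.5-fold line. The work used NumPy 2.4.6 and pandas 2.3.3 under Python 3.11.15, lowess from statsmodels 0.14.6, and matplotlib 3.10.9.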

Additional observations from a re-analysis of the deposited data

How the results depend on the processing

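Without centring, after quantile normalization, after lowess on level, with values under the floor set to the floor and with probes averaged, the counts of members at or above the median level past 2-fold stayed at 3 higher and 0 lower. A pseudocount of 0.1 of the array median left them there too, and one of the full array median left 1 higher (Ccl19), since it shrinks differences by construction. With other sets the higher count was 7 with no filter on level, 5 above both floors, 1 at or above the 75th percentile of level and 5 at 1.5-fold, and the lower count was 4 with no filter and 3 above both floors. The median log2 difference of the 48 members on the log2 scale was 0.14, between 0.08 (pseudocount of the array median) and 0.32 (members at or above the median level) over the alternatives. Under the smaller pseudocount Ccl3, Ccr1, Cxcl1 and Cxcl15 fell short of 2-fold, and Ccl3 did so also after lowess and quantile normalization. Among the 42 members above both floors, the sign of Cxcl13 alone changed (-0.0064 after quantile normalization). No paired analysis was possible because each genotype has 1 sample, and none could be left out. Dim readings limit the receptors most.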

Other observations

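Heparan sulfate proteoglycans and the enzymes that build their chains, which hold chemokines at cell surfaces, were mostly on the lower side. Of 15 genes, all above both floors, 2 were higher and 13 lower in Mxi1 -/-, beside 55.2% of all named genes above both floors that were lower, with a median log2 difference of -0.18 against -0.04 for all such genes. None of the 10 at or above the median level was 2-fold apart. Among the dimmer ones Hs3st1 was 2.85-fold lower, from 0.163 in Mxi1 -/-, barely above the floor, against 0.465 in Mxi1 +/+. Of all dim genes 3.54% were at least 2-fold lower. Syndecan 2 (Sdc2) read 1.53 in Mxi1 -/- and 2.21 in Mxi1 +/+, glypican 4 (Gpc4) read 5.19 in Mxi1 -/- and 6.17 in Mxi1 +/+, and the sulfotransferase Hs6st1 read 4.63 in Mxi1 -/- and 5.47 in Mxi1 +/+.

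Proteases known to trim chemokines leaned the other way, with 9 of 14 above both floors higher and 5 lower. A sign of any size was counted, and 44.8% of all named genes above both floors were higher. Cathepsin S (Ctss), also counted among the macrophage markers, read 9.77 in Mxi1 -/- and 5.86 in Mxi1 +/+, and cathepsin G (Ctsg) read 2.54 in Mxi1 -/- and 2.01 in Mxi1 +/+. Carboxypeptidase N (Cpn1), which removes a terminal basic residue from chemokines and complement peptides, was the 1 gene of the list past 2-fold at or above the median level, at 1.72 in Mxi1 -/- and 3.76 in Mxi1 +/+, 2.19-fold lower.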
